A study of Homo sapiens with 4 samples.

Results

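The microRNA loci linked to the epithelial-mesenchymal transition (EMT) were examined through the genome regions that a comparison of LY75-altered ovarian cancer cells listed around them. The 10 genes were MIR200B, MIR200A, MIR429, MIR200C, MIR141, MIR205, MIR203A, MIR34A, MIR34B and MIR34C, which lie at 6 loci. Regions were chosen by position alone: every listed 1000-bp tile that overlapped a hairpin extended by 10 kb on each side was kept. There were 25 such tiles, of 72455 tiles listed anywhere in the series.

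The cells were clones of SKOV3, an established human ovarian cancer line, and DNA methylation was read by reduced representation bisulfite sequencing (RRBS), which sequences the ends of short fragments cut by the enzyme MspI at CCGG. ShC-S carried a control shRNA, ShLy75-S an shRNA against the antigen receptor gene LY75, and Ly75-KO-S a CRISPR disruption of LY75. Ly75-OV-S, a name the study's text does not use, was taken to be its rescue clone. That clone carried both the LY75 shRNA and an LY75 transgene that the shRNA does not silence. The study describes ShC-S and the rescue clone as mesenchymal (M) and ShLy75-S and Ly75-KO-S as epithelial (E). Each of the 4 groups was 1 library without a replicate, so clone, vector and LY75 cannot be told apart. The first table compared ShC-S with ShLy75-S (the knockdown comparison), and the second compared Ly75-OV-S with Ly75-KO-S (the knockout and rescue comparison). The third is named only Sh against Ly75, which does not state its libraries. By the clone names it could also mean ShC-S and ShLy75-S against Ly75-KO-S and Ly75-OV-S. The third was taken to be the remaining comparison that the study describes, both M clones against both E clones, and is called the mixed comparison. The first 2 tables shared no library, whereas the third, so taken, shared its libraries with both. By the study's account the rescue clone was made from ShLy75-S cells, so the first 2 tables are still related by descent.

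By their names, the tables list only tiles that passed the authors' cutoffs of 25 percentage points and a q-value of 0.01. The study's methods section gives the same difference with a looser cutoff on the adjusted p-value. A tile missing from a table was either under those cutoffs or covered by too few reads, and the tables do not separate these cases. The sequencing depth behind each tile is unknown. What follows is therefore where listed tiles lay. It holds no methylation level, no direction of change and no test between clones.

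A microRNA is cut from a hairpin in a longer transcript and represses messenger RNAs that pair with its seed, bases 2 to 8 from its 5′ end. The miR-200 family (miR-200b, miR-200a, miR-429, miR-200c and miR-141) represses ZEB1 and ZEB2, transcription factors that silence the E-cadherin gene CDH1, and the ZEB factors repress the miR-200 genes in turn. miR-205 also targets the ZEB genes, miR-203 is a product of differentiating epithelia that targets the stem cell factor p63 and SNAI2, and the miR-34 genes encode repressors of SNAI1, MET and BCL2. CpG methylation near these genes is well known in carcinoma cells.

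The family members were grouped by seed. RefSeq held 17 mature sequences from the 10 genes, all of which matched 1 place on their chromosome of GRCh37, the assembly equal to hg19. The main arms of the miR-200 family are shown because their seeds, in capitals, divide the family in a way that crosses its 2 genomic clusters.

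hsa-miR-200b-3p: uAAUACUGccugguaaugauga

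hsa-miR-429: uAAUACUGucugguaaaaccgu

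hsa-miR-200c-3p: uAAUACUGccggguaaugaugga

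hsa-miR-200a-3p: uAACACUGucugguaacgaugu

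hsa-miR-141-3p: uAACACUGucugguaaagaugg

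The first 3 share 1 seed and the last 2 share another. miR-200b, miR-200a and miR-429 come from chromosome 1, and miR-200c and miR-141 from chromosome 12, so each seed group draws on both clusters. The remaining genes are represented by the arms below, again with the seed in capitals.

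hsa-miR-205-5p: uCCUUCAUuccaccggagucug

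hsa-miR-203a-3p: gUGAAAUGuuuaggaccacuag

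hsa-miR-34a-5p: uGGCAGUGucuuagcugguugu

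hsa-miR-34b-5p: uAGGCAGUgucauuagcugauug

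RefSeq entries used here held no 5p arm for MIR34C or MIR141. The seed of miR-34b-5p is that of miR-34a-5p moved by 1 base. MspI sites fell inside mature sequences in 3 cases, miR-200c-3p, miR-205-5p and miR-200a-5p, so at these genes the bases that become the microRNA also hold the cut that makes the RRBS fragment.

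**Figure D1:**
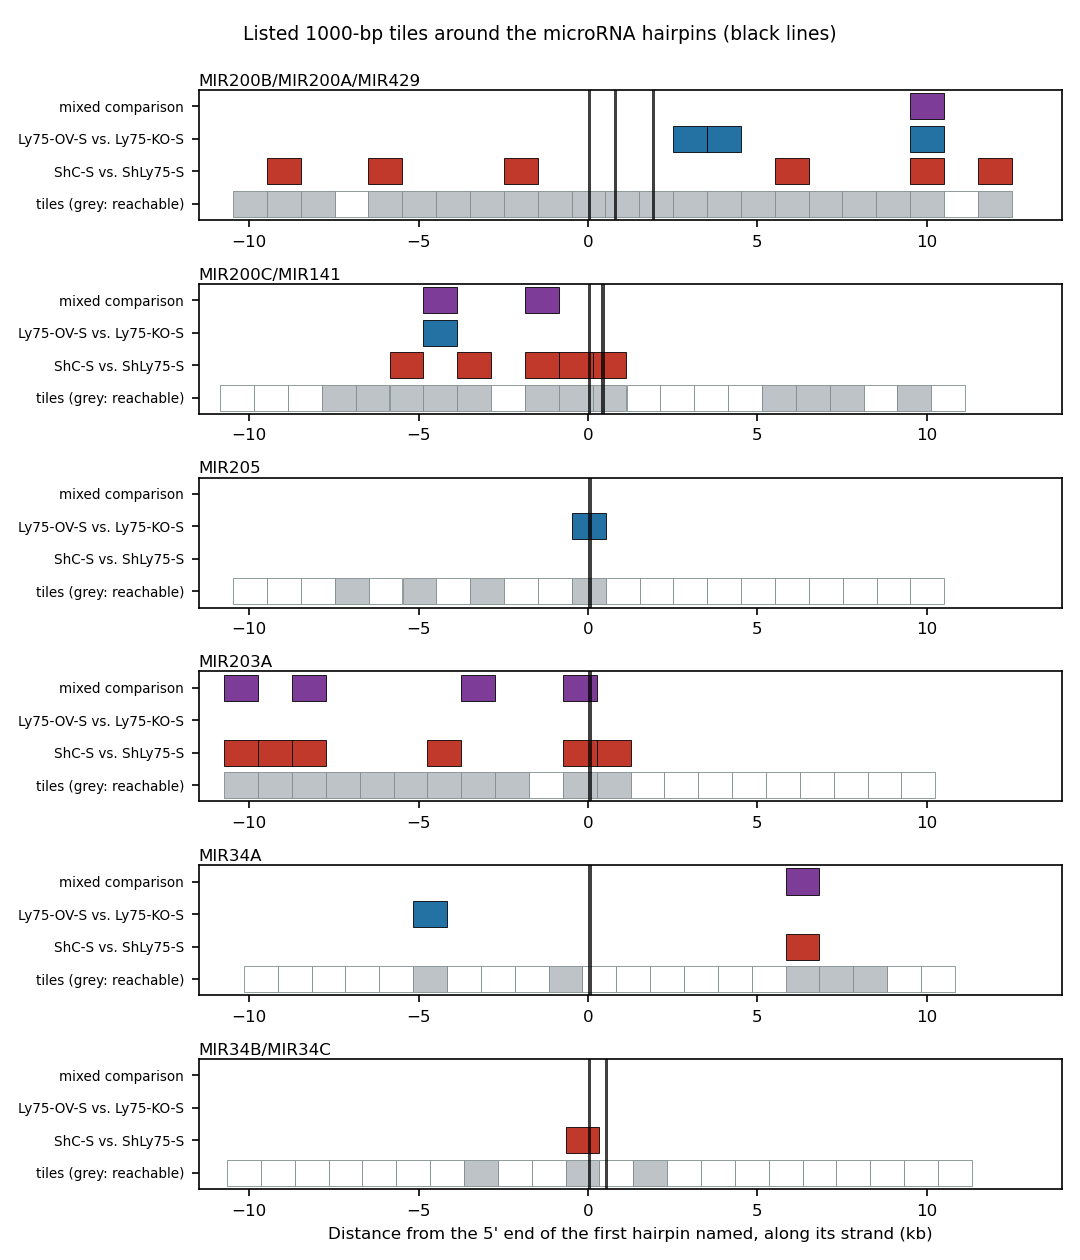
Tiles of 1000 bp (boxes) around the hairpins (black lines) at the 6 loci, by distance in kb along the strand of the microRNA from the 5′ end of the first hairpin in each panel's title. The bottom row of each panel shows all window tiles, grey where a CpG was within predicted reach of RRBS and white where none was. The rows above show the tiles listed in each of the 3 comparisons. Tiles over MIR200C, MIR141, MIR203A and MIR34B were listed in the knockdown comparison, and the tile over MIR205 in the knockout and rescue comparison. The MIR203A tile was also listed in the mixed comparison. No tile over MIR200B, MIR200A, MIR429, MIR34A or MIR34C was listed in any comparison.

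The windows around the 10 genes held 130 tiles. Of these, 56 were reachable, meaning that at least 1 CpG lay within 50 bases of an end of a predicted MspI fragment of 40 to 220 bp. All 25 listed tiles were among the reachable ones. Relative to the nearest hairpin 13 lay upstream, 5 lay over a hairpin and 7 lay downstream, as the map of tiles by locus shows. By the annotation, leaving out the microRNA entries themselves, 14 touched an exon, 3 lay in introns and 8 lay outside genes, and 9 were within 2 kb of a transcription start.

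The knockdown comparison listed 19 window tiles, the knockout and rescue comparison 6 and the mixed comparison 8. They touched the windows of 9, 7 and 7 of the 10 genes, or 5, 4 and 4 of the 6 loci. Of all 3026 annotated microRNA genes, 35.7%, 24.5% and 19% had a listed tile within 10 kb in the same 3 comparisons, reachable or not. MIR205 was the gene without a tile in the knockdown comparison. MIR203A, MIR34B and MIR34C were without one in the knockout and rescue comparison, and MIR205, MIR34B and MIR34C in the mixed comparison.

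As a share of the 56 reachable tiles, the knockdown comparison listed 33.9% (95% Wilson interval 22.9 to 47). Over all reachable tiles of chromosomes 1 to 22 and X, 383358 in number, the share was 12.5%. The knockout and rescue comparison listed 10.7% (5 to 21.5) of the window tiles against a background of 6.67%, a share inside the interval. The mixed comparison listed 14.3% (7.42 to 25.7) against 5.18%. The intervals cover counting error only and take tiles as independent, which neighbouring tiles are not. The genes and windows were chosen with earlier results of these data known, so the intervals are not tests against the background. The mixed comparison was taken to reuse the libraries of the other comparisons, so its share is not separate from theirs. Over the windows of all 3026 annotated microRNA genes the shares were 13.1%, 6.56% and 5.58%, close to the whole background, as the bar plot of listed shares shows.

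**Figure D2:**
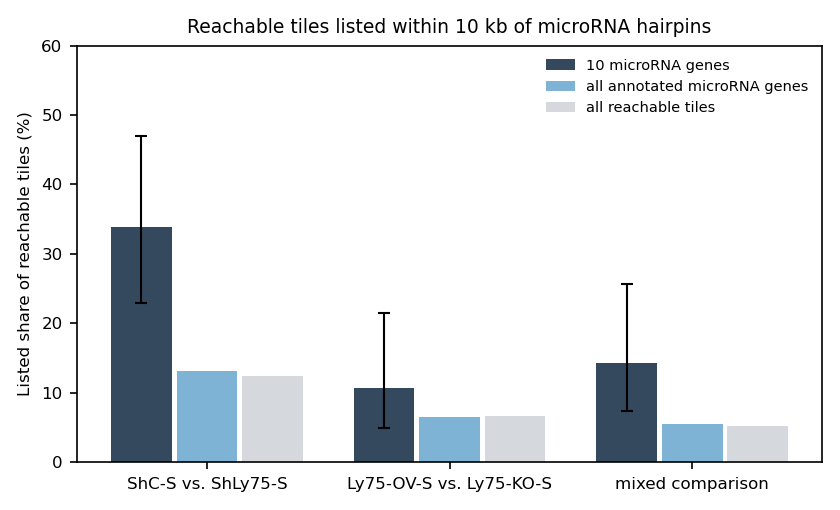
Share of reachable tiles, in percent, listed in each comparison for the windows of the 10 microRNA genes (dark bars, with 95% Wilson intervals that cover counting error only), of all annotated microRNA genes (blue) and for all reachable tiles (grey). The dark bars stand at 33.9, 10.7 and 14.3% and the grey ones at 12.5, 6.67 and 5.18%.

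The listed share differed between classes of CpG number, without a steady order in the knockdown and mixed comparisons. In the knockdown comparison the share of all reachable tiles listed was 13.7% at 1 to 9 CpGs, 11% at 10 to 29, 16.2% at 30 to 59 and 16.6% at 60 or more. In the same classes it was 8.77%, 6.73%, 6.28% and 2.73% in the knockout and rescue comparison and 6.02%, 4.53%, 6.63% and 7.14% in the mixed comparison. For the knockdown comparison the windows had 0 of 1, 6 of 21, 10 of 29 and 3 of 5 tiles listed in these classes. Within the windows, knockdown tiles held a median of 36 CpGs (18 to 128) and the unlisted reachable tiles 31 (7 to 74). The 6 tiles of the knockout and rescue comparison held a median of 30 (13 to 37), against 35.5 (7 to 128) among the unlisted. The ranges overlapped in both comparisons. What CpG number contributes to the listed shares was not tested.

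**Figure D3:**
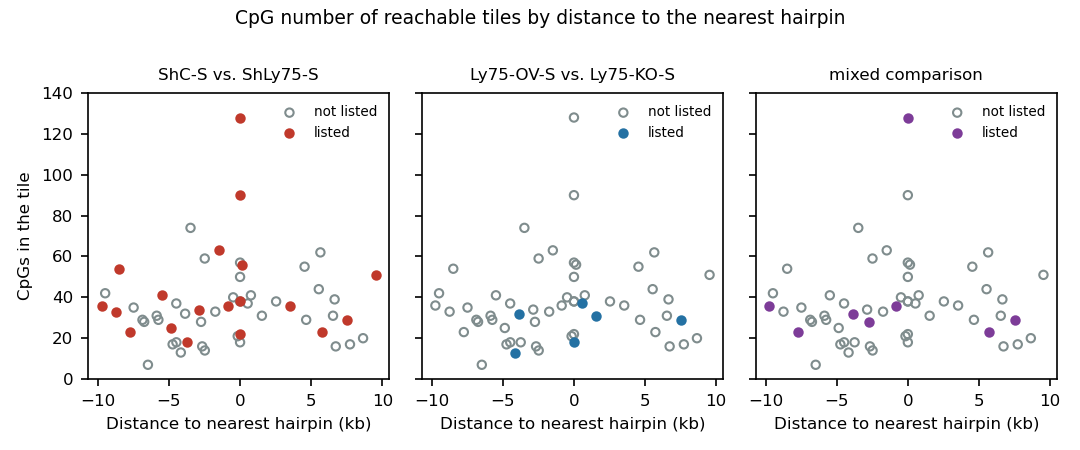
Number of CpGs in each of the 56 reachable window tiles by distance in kb to the nearest hairpin, negative upstream, with listed tiles filled and unlisted tiles open in each comparison. The tiles with 128 CpGs (over MIR203A) and 90 CpGs (over MIR34B) were listed in the knockdown comparison and not in the knockout and rescue comparison, whose 6 tiles held at most 37.

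In the windows 1 tile was listed in both of the comparisons that share no library, 5.26% of the 19 knockdown tiles and 16.7% of the 6 knockout and rescue tiles. Over the whole series 8345 tiles were in both tables, 16.3% of the knockdown tiles and 29.5% of the knockout and rescue tiles. The window count was 3 when adjacent tiles were also counted and 0 with windows of 5 kb, so it is too small to be read as high or low. It was chr1:1112001-1113000, which lies 7534 bp downstream of MIR429 in introns of TTLL10, a tubulin glycylase family gene, and of its antisense transcript TTLL10-AS1. This tile was also the only one present in all 3 tables. Of the others, 13 were in the knockdown table alone, 5 in the knockdown and mixed tables, 4 in the knockout and rescue table alone, 1 in the knockout and rescue and mixed tables, and 1 in the mixed table alone.

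The miR-200b, miR-200a and miR-429 cluster stands on the plus strand of chromosome 1, with hairpins at chr1:1102484-1102578, chr1:1103243-1103332 and chr1:1104385-1104467. Its window had the most tiles within reach of the predicted fragments, 21 of 23. The 3 tiles over the hairpins held 57, 50 and 38 CpGs, of which 38, 25 and 27 were reachable, and none of the 3 was listed in any table. The listed tiles flanked them. The knockdown comparison had 3 upstream tiles, at 8484, 5484 and 1484 bp from MIR200B, all outside annotated genes, of which the nearest, chr1:1100001-1101000, held 63 CpGs. It had 3 more downstream, at 3534, 7534 and 9534 bp from MIR429, the first 260 bp upstream of a TTLL10 start and the last over the TTLL10-AS1 start.

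The knockout and rescue comparison had no tile upstream of this cluster. Its 3 tiles lay 534, 1534 and 7534 bp downstream of MIR429. The first 2 are adjacent and together span chr1:1105001-1107000, which begins 264 bp past the start of the unnamed transcript gene ENSG00000272141. The mixed comparison listed the 7534 bp tile and no other here. The share of reachable tiles was 28.6% (13.8 to 50), 14.3% (4.98 to 34.6) and 4.76% (0.846 to 22.7) in the knockdown, knockout and rescue, and mixed comparisons.

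By the predicted digest, the unlisted hairpin tiles of this cluster held CpGs within reach, but whether they were covered by reads is unknown. The predicted MspI fragment over MIR200B, chr1:1102479-1102587 on the plus strand of GRCh37, is 109 bp long and covers the whole hairpin. It is shown, with CpGs in capitals, because all 8 of its CpGs fall within reach of a read and both mature arms of miR-200b lie inside it.

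MIR200B fragment: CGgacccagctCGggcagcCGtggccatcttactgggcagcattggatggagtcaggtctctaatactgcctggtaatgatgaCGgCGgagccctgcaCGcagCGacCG

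None of its CpGs lies in the mature miR-200b-3p or miR-200b-5p sequence. Over the MIR429 hairpin the predicted fragment is 140 bp and holds 8 CpGs, 5 of them within reach.

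The miR-200c and miR-141 cluster showed the other arrangement, with listed tiles over the hairpins themselves. MIR200C is at chr12:7072862-7072929 and MIR141 at chr12:7073260-7073354, both on the plus strand. The tiles over both hairpins touched exons of their host transcript MIR200CHG. In the knockdown comparison 3 adjacent tiles were listed over 3 kb, chr12:7071001-7074000. The first lay 389 bp upstream of the MIR200CHG start and 862 bp upstream of MIR200C, the second held that start at position 7072389 together with MIR200C, and the third held MIR141. They contained 36, 38 and 22 CpGs, with 16, 13 and 4 within reach. The mixed comparison listed the first of them, and the knockout and rescue comparison listed none.

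The predicted fragments over both hairpins are shown with CpGs in capitals, because they hold CpGs within reach that lie in or next to the hairpins. Most of the reachable CpGs of the MIR200C tile lie in other fragments.

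MIR200C fragment (chr12:7072914-7073017): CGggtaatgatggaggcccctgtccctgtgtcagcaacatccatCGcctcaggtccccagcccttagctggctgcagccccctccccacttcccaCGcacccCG

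MIR141 fragment (chr12:7073264-7073345): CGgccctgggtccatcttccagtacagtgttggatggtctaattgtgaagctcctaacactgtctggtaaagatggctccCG

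The MIR200C fragment begins inside the mature miR-200c-3p sequence. Its 4 CpGs are all within reach, and 1 of them is in the hairpin. The MIR141 fragment lies within the hairpin, so its 2 CpGs are both hairpin CpGs, and both stand at the cut ends.

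The promoter of MIR200CHG is shown because it lies in the listed hairpin tile of MIR200C, with the only MspI site in capitals. RefSeq gave its 300 bases on GRCh38.p14, most of them before the start, and they matched chr12:7072158-7072457 of GRCh37 exactly.

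MIR200CHG promoter: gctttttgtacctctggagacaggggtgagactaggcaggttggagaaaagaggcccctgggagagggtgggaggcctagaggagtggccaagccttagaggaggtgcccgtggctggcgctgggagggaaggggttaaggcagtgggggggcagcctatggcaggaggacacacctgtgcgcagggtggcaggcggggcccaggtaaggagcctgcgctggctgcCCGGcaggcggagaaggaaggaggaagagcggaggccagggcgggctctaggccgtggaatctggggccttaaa

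This window held 10 CpGs, where the median of 35116 RefSeq promoters of the same length was 14. The MspI motif CCGG, which reads the same on both strands, occurred in 63.1% of those promoters.

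Further upstream the MIR200C and MIR141 window reached into PTPN6, a protein tyrosine phosphatase gene, where tiles touching its exons alternated between comparisons. The knockdown comparison listed the tiles 4862 and 2862 bp upstream of MIR200C, and the knockout and rescue comparison listed the tile between them, 3862 bp upstream, which the mixed comparison also listed. The share of the 12 reachable tiles was 41.7% (19.3 to 68), 8.33% (1.49 to 35.4) and 16.7% (4.7 to 44.8) in the knockdown, knockout and rescue, and mixed comparisons.

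At MIR205 (chr1:209605478-209605587, plus strand) just 4 of 21 tiles were reachable. The knockout and rescue comparison listed 1, chr1:209605001-209606000, which covers the hairpin and touches an exon of the host transcript MIR205HG. The tile holds 18 CpGs, and 2 are within reach. It was in neither of the other tables. With 0 of 4 tiles in the knockdown comparison, the Wilson interval extends to 49%. A knockdown tile lay 10478 bp upstream, just beyond the window. Both reachable CpGs of the hairpin tile belong to 1 predicted fragment, shown with CpGs in capitals.

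MIR205 fragment (chr1:209605401-209605525): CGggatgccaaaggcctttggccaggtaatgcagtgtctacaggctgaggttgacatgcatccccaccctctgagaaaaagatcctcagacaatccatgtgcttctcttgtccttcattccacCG

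The last CpG of the fragment is in the mature miR-205-5p sequence, at its MspI site. It is the only CpG of the MIR205 hairpin.

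MIR203A (chr14:104583742-104583851, plus strand) had the highest listed share of the 6 loci in the knockdown comparison, 54.5% (28 to 78.7) of 11 reachable tiles. The interval overlapped those of all 5 other loci. The tile over the hairpin, chr14:104583001-104584000, was listed in the knockdown and mixed comparisons. With 128 CpGs and a GC content of 76% it was the most CpG-dense tile of all the windows, and 86 of its CpGs were within reach. The next tile, 150 bp downstream of the hairpin and holding 56 CpGs, was listed in the knockdown comparison, so that 2 kb were listed without a gap.

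The other listed tiles at MIR203A lay upstream, in ASPG, an asparaginase gene. The knockdown comparison listed 3 adjacent tiles at 9742, 8742 and 7742 bp and a further tile at 3742 bp, and the mixed comparison listed those at 9742 and 7742 bp and another at 2742 bp. The mixed share was 36.4% (15.2 to 64.6). The knockout and rescue comparison listed 0 of the 11 tiles, which has an upper Wilson bound of 25.9%.

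The hairpin of MIR203A is split by an MspI site into 2 predicted fragments, shown with CpGs in capitals because they are the densest of those over any of the 10 hairpins.

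MIR203A fragment 1 (chr14:104583669-104583832): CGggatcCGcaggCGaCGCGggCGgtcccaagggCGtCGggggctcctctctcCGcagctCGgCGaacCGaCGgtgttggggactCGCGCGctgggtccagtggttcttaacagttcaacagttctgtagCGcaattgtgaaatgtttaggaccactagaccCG

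MIR203A fragment 2 (chr14:104583831-104583903): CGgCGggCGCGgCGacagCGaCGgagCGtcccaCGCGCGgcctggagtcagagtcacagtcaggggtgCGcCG

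The fragments hold 18 and 13 CpGs, of which 10 and 13 are within reach of a 50-base read. The hairpin holds 10 CpGs, the most of the 10 genes, yet none is in the mature miR-203a-3p or miR-203a-5p sequence.

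MIR34A (chr1:9211727-9211836, minus strand) and MIR34C (chr11:111384164-111384240, plus strand) were the 2 genes without a predicted fragment over the hairpin. Their hairpin tiles held 30 and 8 CpGs, none of them reachable at fragment lengths of 40 to 220 bp. With fragments of 30 to 400 bp, 2 CpGs of the MIR34A tile and 0 of the MIR34C tile were reachable. Around MIR34A, 5 of 21 tiles were reachable. The tile 5727 bp downstream was listed in the knockdown and mixed comparisons. The tile 4165 bp upstream, in an intron of the host transcript MIR34AHG, was listed in the knockout and rescue comparison with 13 CpGs and 2 within reach. The annotated MIR34AHG starts lie beyond the window, at positions 9242451 and 9258762 of chromosome 1.

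At MIR34B and MIR34C 3 of 22 tiles were reachable and 1 was listed, in the knockdown comparison alone. That tile, chr11:111383001-111384000, covers MIR34B (chr11:111383663-111383746, plus strand) and ends 164 bp upstream of MIR34C. It also holds starts of BTG4, a gene of the BTG/TOB family on the opposite strand, and touches an exon of the host transcript MIR34BHG. It was the second most CpG-dense tile of the windows, with 90 CpGs and 39 within reach. The predicted fragment over the hairpin is shown with CpGs in capitals.

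MIR34B fragment (chr11:111383661-111383763): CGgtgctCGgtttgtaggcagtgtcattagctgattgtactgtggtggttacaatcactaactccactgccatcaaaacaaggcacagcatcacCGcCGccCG

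Its 5 CpGs are all within reach and stand at its ends. Only 1 is in the hairpin and none is in a mature sequence.

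Tiles over a hairpin were thus listed for 4 of the 10 genes in the knockdown comparison (MIR200C, MIR141, MIR203A and MIR34B), for 1 in the knockout and rescue comparison (MIR205) and for 1 in the mixed comparison (MIR203A). The number with a hairpin tile in both the knockdown and the knockout and rescue comparisons was 0 of the 10 genes, and 20 (0.661%) of all 3026 annotated microRNA genes. In each table alone, the hairpin tile was listed for 4.16%, 1.82% and 1.75% of the 3026 genes. Those shares count every gene, reachable or not.

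Other microRNA genes studied in EMT or in cancer methylation were counted the same way. Of 16, 12 were found in the annotation by symbol, and 7 had a listed tile within 10 kb in the knockdown comparison (MIR9-1, MIR9-3, MIR10B, MIR148A, MIR192, MIR335 and MIR375), 3 in the knockout and rescue comparison (MIR9-3, MIR192 and MIR375) and 6 in the mixed comparison. Among all 3026 annotated microRNA genes, 35.7%, 24.5% and 19% had a listed tile within 10 kb in the knockdown, knockout and rescue, and mixed comparisons. For MIR9-1 and MIR192 a listed tile covered the hairpin in the knockdown and mixed comparisons. A listed tile covered the hairpin of 4.16% and 1.75% of the 3026 genes in the same comparisons.

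Targets and regulators of the 10 microRNAs were counted at their promoters, within 2 kb of a start. Of 11 genes, the knockdown comparison listed a tile for 4: ZEB2 and SNAI1, which repress epithelial genes, CDH1, which encodes E-cadherin, and the survival gene BCL2. The mixed comparison listed ZEB2, CDH1 and BCL2, and the knockout and rescue comparison listed 0. The genes without a tile in any comparison were ZEB1, SNAI2, MET, CCND1, CDK6, NOTCH1 and TP63. Of 20090 protein-coding genes, 30.3%, 14.3% and 15.2% had such a tile in the knockdown, knockout and rescue, and mixed comparisons.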

How the data were processed

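RRBS libraries of the 4 SKOV3 clones were sequenced as single 50-base reads. Per the submitters' processing notes, reads were checked with FastQC, trimmed with Trim Galore 0.4.1 (the extraction protocol names Trimmomatic), aligned to hg19 with Bismark 0.16.1 and compared with methylKit in 1000-bp tiles. The coverage minimum is not given in the sources used here. The 3 deposited tables hold tile positions and the authors' own comparison values (methylation difference, p-value and q-value). Only the positions were used, since the remaining columns are results of the study. Raw methylation calls were not used here.

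Hairpins were placed on GRCh37 by GENCODE release 44 lifted to that build, except MIR205, placed by an exact match of its RefSeq hairpin; MIR203A is named MIR203 there. Distances run from the nearest base of a tile to the hairpin, negative upstream. MspI fragments were cut in silico at CCGG. On chromosomes 1 to 22 and X, 93.4%, 90.4% and 94.6% of the tiles listed in the knockdown, knockout and rescue, and mixed tables were reachable as defined. The digest was tested on simulated sequences. Python 3.11.15, numpy 2.4.6 and scipy 1.17.1 were used. With 1 library per clone and no counts, no test was run. All 10 genes were named, each with every listed tile in its window. The genes, lists and windows were chosen with earlier results of these data known. From the list of targets and regulators 1 gene is not reported here. Alternatives were windows of 5 and 20 kb, tiles wholly inside the window, other fragment lengths, more CpGs per tile, and adjacent tiles counted as shared.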

Additional observations from a re-analysis of the deposited data

How the results depend on the processing

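With windows of 5 kb the listed tiles fell to 11 in the knockdown comparison and 4 in the mixed comparison, from 19 and 8, and the microRNA genes with a tile in the mixed comparison to 3, from 7. The tile shared by the knockdown and the knockout and rescue comparisons lies outside that window, which leaves 0, while counting adjacent tiles as shared raised the number from 1 to 3, through 2 tiles in PTPN6. With windows of 20 kb the listed tiles were 27, 6 and 9 in the knockdown, knockout and rescue, and mixed comparisons. With fragments of 30 to 400 bp the listed shares of reachable tiles were 26.8%, 8.45% and 11.3%, against backgrounds of 9.92%, 5.41% and 4.07%. With at least 3 reachable CpGs they were 37.3%, 7.84% and 15.7%, against 12.6%, 6.26% and 5.08%. No paired analysis was possible because each clone was 1 library and the result comes from no test. A small number of reachable tiles limits the loci of MIR205, MIR34A, and MIR34B with MIR34C, where 4, 5 and 3 tiles were within predicted reach.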
